A study of Mus musculus with 2 samples.

Results

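Values are given here for 9 mouse genes of oxidative metabolism: the monoamine oxidases Maoa and Maob, the flavin-containing monooxygenases Fmo1, Fmo2, Fmo4 and Fmo5, and the molybdenum enzymes Aox1, Aox3 and Xdh. The set was chosen by the difference in log2 signal of Maoa, among the largest higher ones in globule-containing areas, so the contrast described here is the one that selected it. They are 9 of 30142 genes that had a probe set naming 1 gene. The animals were PiZ mice of the C57BL/6 strain, transgenic for the human gene of mutant alpha-1-antitrypsin (ATZ) under its own promoter, whose product collects in hepatocytes as globules. All were 3 months old, untreated and fed standard chow, so transgene, age and diet are shared by both groups. The groups are laser-captured liver areas with globules and areas without them, each measured on 1 array that holds RNA pooled from 2 mice. The labels do not state whether the same mice gave both pools. Globule-free areas of the same transgenic line are the only control, and no mice without the transgene are compared here.

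Monoamine oxidases sit in the outer mitochondrial membrane and use FAD to turn amines such as serotonin, noradrenaline and phenylethylamine into aldehydes, releasing ammonia and hydrogen peroxide. Flavin-containing monooxygenases are NADPH-dependent enzymes of the endoplasmic reticulum that add oxygen to nitrogen and sulfur atoms of drugs and diet compounds. Aldehyde oxidases and xanthine dehydrogenase are cytosolic relatives that combine a molybdenum cofactor, iron-sulfur clusters and FAD. The former oxidise aldehydes and nitrogen heterocycles, and the latter makes urate from hypoxanthine and xanthine.

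Values are log2 signals, and a difference is the log2 signal of globule-containing areas minus that of globule-free areas. With 1 array a group there is no replicate and no test, and every difference describes these 2 arrays only. Background was set from 1721 probe sets of smell and pheromone receptors (Olfr and Vmn genes), by their 95th percentile, at 4.85 on the globule-containing and 5.04 on the globule-free array. Genes with a mean log2 signal of at least 4.76, the floor, numbered 15023, and all 9 oxidase genes were among them. Where a gene had 2 bright probe sets (173 genes), their differences lay a median of 0.17 apart. This gap shows disagreement between probe sets only. It holds no variation between dissections, arrays or mice, so the error of a difference is unknown.

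The oxidase genes were split. With globules present, Maoa and Aox1 were at least 2-fold higher and Maob and Aox3 lower by at least 2-fold, and the 4 Fmo genes and Xdh lay within 2-fold. Against these 2 of 9 in each direction (22.2%), 6.47% of all genes above the floor were higher and 5.26% lower by 2-fold or more. Since this contrast chose the genes, nothing is read from the comparison of these shares. The median difference was 0.31 over the 9 genes and 0.05 over all genes, and the distance from the highest to the lowest of the 9 was 8.25 on the log2 scale.

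**Figure D1:**
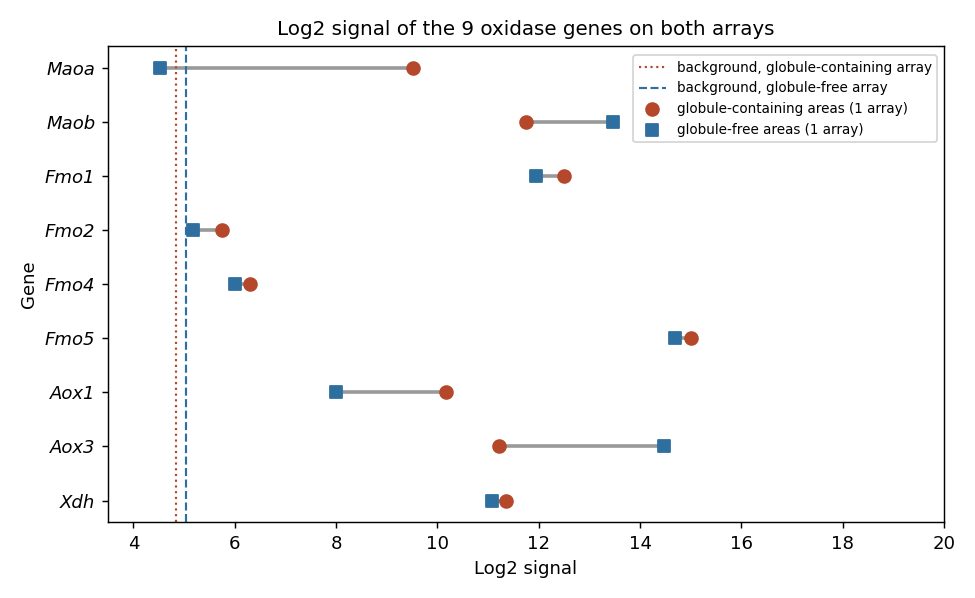
Log2 signal (x axis) of each of the 9 oxidase genes (y axis) in globule-containing areas (circles) and globule-free areas (squares), 1 array each, with the background of each array as a vertical line. Maoa runs from 4.53, below background, to 9.52, while Aox3 runs the other way, from 14.48 in globule-free to 11.22 in globule-containing areas.

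Of the monoamine oxidases, Maoa (probe set TC0X00000181.mm.1), which prefers serotonin and noradrenaline, gave a log2 signal of 9.52 where globules were present and 4.53 where they were not. The globule-free signal lay below background, by 0.50, so Maoa was at least 22.5-fold higher, or at least 12.1-fold higher with background at the 99th percentile (5.93). Maob (TC0X00001892.mm.1), which prefers phenylethylamine, had 11.75 and 13.48, a difference of -1.73, or 3.32-fold lower in globule-containing areas. The Maob signal was far above background on both arrays, whereas Maoa was above background on the globule-containing array only. The ratio of Maoa to Maob signal was thus at least 74.4-fold higher in globule-containing than in globule-free areas. The log2 gap was 6.22, or a lower 5.32 with the 99th percentile background. A constant shift of 1 array leaves this change of ratio as it is. Maoa was the dimmer of the pair on both arrays. In bulk areas such as these, fewer cells of a type and less RNA per cell cannot be told apart.

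By the value that selected it, Maoa ranked 18th from the highest of all 15023 genes, and 14th of 10064 after predicted, RIKEN, small RNA, receptor and pseudogene entries were left out. With dim values raised to background its difference was 4.49 and these ranks 22 and 18, so its place and its neighbours are approximate. As deposited, the 3 genes just above it were the vacuolar proton pump subunit Atp6v0d2 (difference 5.08), Ctss, a lysosomal protease (5.08), and Gstm3, a glutathione transferase (5.05). The 3 just below it were Anxa2, a membrane-binding annexin (4.96), Slc7a11, the cystine importer (4.84), and Srxn1, sulfiredoxin (4.80). The likeness is that of 1 difference between 2 arrays. Anxa2 and Slc7a11 were, like Maoa, at or below background in globule-free areas, so for these 3 genes only a lower bound of the fold is known and their order is not fixed.

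**Figure D2:**
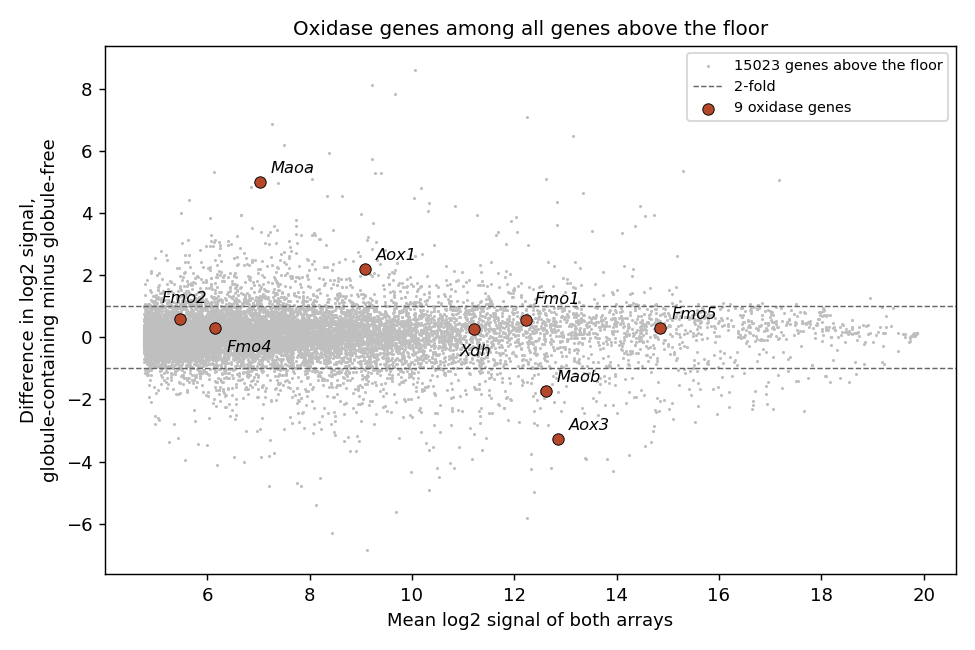
Difference in log2 signal (y axis) against the mean log2 signal of both arrays (x axis) for 15023 genes above the floor (small points) and the 9 oxidase genes (large labelled points), with 2-fold as dashed lines. Maoa at 4.99 and Aox1 at 2.19 lie above the upper line, Maob at -1.73 and Aox3 at -3.26 below the lower, and the other 5 genes between the lines.

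The 4 Fmo genes lay within 2-fold, each with its higher signal where globules were present. Fmo1 (TC0100003401.mm.1), a broad-range drug-oxidising form, had log2 signals of 12.49 with and 11.95 without globules, a difference of 0.54 or 1.45-fold. Fmo5 (TC0300000967.mm.1), a form that can insert oxygen next to a carbonyl group, had 15.01 and 14.70, a difference of 0.31. Both were strongly measured, and neither approached 2-fold.

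Fmo4 (TC0100003399.mm.1) had 6.30 and 6.01, a difference of 0.29. Fmo2 (TC0100003402.mm.1), best known from lung, had 5.76 and 5.18, a difference of 0.58, and its globule-free signal was only 0.14 above background. The 4 differences, all positive, ran from 0.29 to 0.58, a width of 0.29. They stayed positive under each of the 3 scalings tried, with Fmo5 at 0.08 after quantile normalization or loess correction, but Fmo2 turned to -0.17 with dim values raised to the 99th percentile of background. Fmo6 and Fmo9 lay at background on both arrays.

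Among the molybdenum enzymes, the pair of aldehyde oxidases went opposite ways. Aox1 (TC0100000427.mm.1) had log2 signals of 10.18 with and 7.99 without globules and was 4.56-fold higher. Aox3 (TC0100000428.mm.1), the other aldehyde oxidase of mouse liver, had 11.22 and 14.48, a difference of -3.26, and was 9.59-fold lower. Both genes were well above background on both arrays, so neither fold is a bound. Aox1 ranked 178th from the highest and Aox3 48th from the lowest of the 15023 genes. The ratio of Aox1 to Aox3 signal was 43.7-fold higher in globule-containing than in globule-free areas. Aox1 was the dimmer of the pair on both arrays. The gap of their differences was 5.45 as deposited, 5.57 after quantile normalization and 5.55 after loess correction. The other alternatives that keep the threshold gave the gap as deposited, since they do not reach these genes or shift both alike. Aox2 and Aox4, which mice express mainly outside the liver, lay at background on both arrays.

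Xdh, xanthine dehydrogenase, was measured by a pair of probe sets that gave different values. The first, TC1700002526.mm.1, had 10.78 with and 10.10 without globules, a difference of 0.68 or 1.61-fold higher. The second, TC0100001108.mm.1, had 11.91 and 12.06, a difference of -0.15. Their mean difference was 0.27. The identifier of the first carries chromosome 17, where RefSeq places Xdh, and that of the second carries chromosome 1. Of 30099 probe sets of 1 gene, 95 carried a chromosome other than that of their gene in RefSeq, so whether the second reads Xdh is uncertain. By either probe set Xdh lay within 2-fold.

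The RefSeq promoter windows of Maoa, Aox1 and Aox3 are shown because these genes had the largest differences of the set and because Aox1 and Aox3 are close relatives that went opposite ways. Each window runs 5′ to 3′ on the strand of the gene, from 250 bases before to 50 bases after the annotated start, on GRCm38.p6. The windows lie at chrX:16619448-16619747 (plus strand) for Maoa, chr1:58029719-58030018 (plus strand) for Aox1 and chr1:58112886-58113185 (plus strand) for Aox3. Capitals mark matches, on either strand, to the GC box GGGCGG, the antioxidant response element core TGACNNNGC or the aryl hydrocarbon receptor core GCGTG, and no marked matches overlap.
Maoa: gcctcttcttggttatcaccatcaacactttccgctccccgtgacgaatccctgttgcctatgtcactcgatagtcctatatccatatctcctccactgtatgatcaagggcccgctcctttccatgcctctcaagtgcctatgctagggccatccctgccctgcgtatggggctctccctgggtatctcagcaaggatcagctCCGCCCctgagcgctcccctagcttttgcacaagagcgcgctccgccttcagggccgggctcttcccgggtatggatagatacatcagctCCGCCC
Aox1: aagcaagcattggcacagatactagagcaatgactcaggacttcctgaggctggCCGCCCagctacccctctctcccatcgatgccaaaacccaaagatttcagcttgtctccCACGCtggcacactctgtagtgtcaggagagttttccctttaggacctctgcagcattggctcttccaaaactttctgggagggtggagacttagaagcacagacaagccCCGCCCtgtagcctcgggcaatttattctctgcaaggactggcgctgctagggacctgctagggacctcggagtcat
Aox3: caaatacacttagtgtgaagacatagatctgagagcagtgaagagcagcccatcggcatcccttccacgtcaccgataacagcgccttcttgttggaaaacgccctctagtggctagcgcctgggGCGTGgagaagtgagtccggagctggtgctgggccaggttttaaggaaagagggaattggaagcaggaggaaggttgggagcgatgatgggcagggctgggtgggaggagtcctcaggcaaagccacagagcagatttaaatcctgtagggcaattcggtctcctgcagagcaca

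The Maoa window held 2 GC boxes, at bases 205 to 210 and 295 to 300 counted from its 5′ end, both on the opposite strand. The Aox1 window also held 2, at bases 55 to 60 and 224 to 229, and the Aox3 window held none. Aox1 and Aox3 each held 1 aryl hydrocarbon receptor core, at bases 114 to 118 (opposite strand) and 126 to 130 (same strand). No window of the set held the antioxidant response element core. Of 32851 windows of this length, 35.7% held a GC box, 12.4% the antioxidant response element core and 32.4% the aryl hydrocarbon receptor core. Of the other members with a window, Fmo5 held 1 GC box, and Fmo2 and Fmo4 held no match. In all, 6 of the 9 genes matched an entry, and Maob, Fmo1 and Xdh did not. These matches describe letters and not sites of binding.

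In chromosome order (RefSeq, GRCm38.p6, used for order only), Maoa and Maob are neighbours on chromosome X, and Aox1, Aox3, Aox4 and Aox2 follow each other on chromosome 1. At both places, genes next to each other therefore differed in opposite directions. Of the 3 measured protein-coding genes on each side of the Mao pair, only Fundc1, a mitophagy receptor, was above the floor, at 0.45. Of the 6 around the Aox genes, 4 were above the floor, with differences from 0.23 to 0.62. Around Fmo4, Fmo1, Fmo2 and Fmo6 on chromosome 1, 2 of 6 were above the floor, at 0.14 and 0.26. None of these flanking genes was 2-fold apart. Beside Fmo5 on chromosome 3, Prkab2, a subunit of AMP-activated protein kinase, was 2.76-fold higher.

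**Figure D3:**
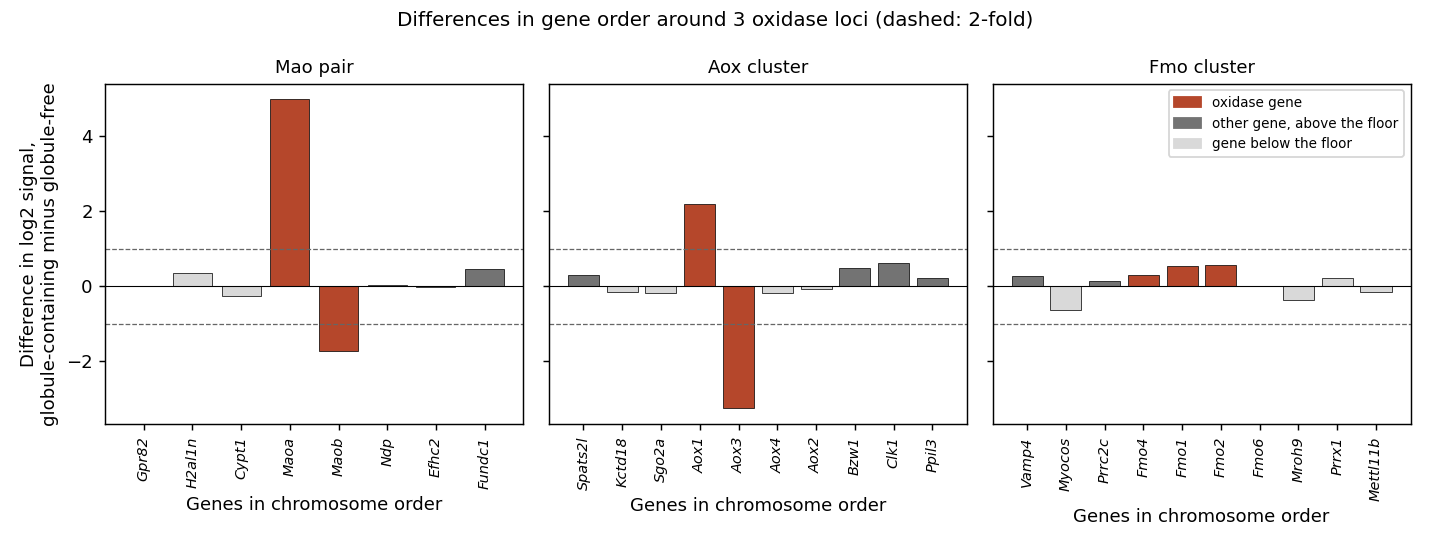
Difference in log2 signal (y axis) for measured protein-coding genes in chromosome order (x axis, not to scale) at the Mao, Aox and Fmo loci, with oxidase genes coloured, other genes above the floor dark and genes below the floor pale. Maoa against Maob and Aox1 against Aox3 point opposite ways, while the flanking genes above the floor lie between 0.14 and 0.62.

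Genes that work around the monoamine oxidases went both ways. Beside the counts of this and the following lists, 6.47% of all genes above the floor were higher and 5.26% lower by 2-fold or more. Of 24 listed, 19 had a probe set of their own and 12 were above the floor, 2 of them higher and 2 lower by 2-fold or more, and the median was 0.05. Aldh3a2, a fatty aldehyde dehydrogenase, was 7.99-fold higher, and Sat1, which acetylates polyamines, 4.38-fold higher. Sult1a1, which sulfates phenols and catecholamines, was 13.4-fold lower, at 10.46 against 14.20. Aldh2, the mitochondrial dehydrogenase that takes up aldehydes made by monoamine oxidases, had 12.66 against 13.01. The serotonin transporter Slc6a4 and the synthesis enzymes Th, Tph1 and Dbh lay at background on both arrays, while Ddc, which makes serotonin and dopamine from their precursors, had 7.87 against 7.13.

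A list of flavin supply, electron donors and related reductases showed a similar mix, around a median of 0.11. Of 12 listed, 8 had a probe set of their own, and Slc52a2, Flad1, Por and Cyb5a had none. Of the 8, 2 were higher and 1 lower by 2-fold or more, and both higher genes were reductases. Nqo1, a quinone reductase, was at least 7.63-fold higher against a globule-free signal at background, and Txnrd1, thioredoxin reductase, 2.93-fold higher. Slc25a32, the mitochondrial carrier of folate and FAD, was 3.04-fold lower.

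Other flavin-dependent oxidases and dehydrogenases of the liver lay mostly on the low side. Of 17 above the floor, 9 were lower by 2-fold or more and none higher by that much, and the median was -1.08, beside 5.26% lower genes and a median of 0.05 over all genes. Hao1, the peroxisomal glycolate oxidase, was 7.59-fold lower, Pipox, which oxidises pipecolate and sarcosine, 4.55-fold, and Prodh2, hydroxyproline dehydrogenase, 3.59-fold. The median stayed between -1.19 and -0.95 under the alternatives that keep the threshold. Periportal hepatocyte markers were lower too, with 10 of 11 lower by 2-fold or more and a median of -3.24, and their part in this result was not tested.

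Of the molybdenum cofactor list, 8 of 10 genes were above the floor, 1 of them higher and 1 lower by 2-fold or more, and the median was -0.20. Mocos, the sulfurase that activates aldehyde oxidases and xanthine dehydrogenase, was 2.47-fold higher, a log2 difference of 1.31. Mtarc1, a mitochondrial amidoxime reductase, was 2.78-fold lower. Mocs3, which acts in cofactor synthesis, had 5.86 against 6.55, and Suox, sulfite oxidase, 11.10 against 11.26.

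Purine genes around Xdh had a median of 0.01 over 16 genes above the floor. Uox, which degrades the urate that Xdh makes, was 4.58-fold lower, at 15.56 against 17.76. Slc17a3, an organic anion transporter that carries urate, was 2.45-fold lower, and Hprt, which salvages hypoxanthine, 2.50-fold higher. The other 13 lay within 2-fold.

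Genes tied to substrates of aldehyde oxidase had a median of -0.11 over 9 above the floor. Nnmt, which methylates nicotinamide to a compound that aldehyde oxidases oxidise, was 13.2-fold lower, at 5.44 against 9.16. It was the only 1 of the 9 at least 2-fold apart as deposited, against 2 lower after quantile normalization or loess correction, and Nampt and Naprt of NAD synthesis differed by -0.89 and -0.86. Nnmt was thus lower on the array on which Aox3 was lower and Aox1 higher.

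For removal of peroxide, 1 of 12 genes, Srxn1, was at least 2-fold apart, 27.9-fold higher, and the median was 0.08. Gpx1 lay within 0.2 of the highest value of both arrays, and Sod1 within 0.2 of that of the globule-free array. This limits their differences and the median. Prdx1, Prdx5 and Prdx6 had no probe set of their own. Cat, catalase, had 18.06 against 18.30, Prdx3, the mitochondrial peroxiredoxin, 13.03 against 12.13, and Gpx4, which reduces lipid peroxides, 7.31 against 6.54. Of 18 transcription factors and cofactors above the floor, 1 was higher and 3 were lower by 2-fold or more. Nfe2l2, which encodes the antioxidant regulator NRF2, was the higher one, with a log2 difference of 1.31. Ppargc1a, a metabolic coactivator, was 4.11-fold lower, Nr1i3, the drug-sensing receptor CAR, 2.84-fold, and Ppara, the fatty acid receptor, 2.80-fold. Hnf4a had 9.12 against 9.86. Klf11 and Foxo1, among the factors known for control of Maoa, differed by -0.22 and -0.01. Of the same list, Sp1, Nr3c1 and Cdca7l differed by 0.03, -0.36 and 0.34. The Cdca7l signal was at or below background in globule-free areas.

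**Figure D4:**
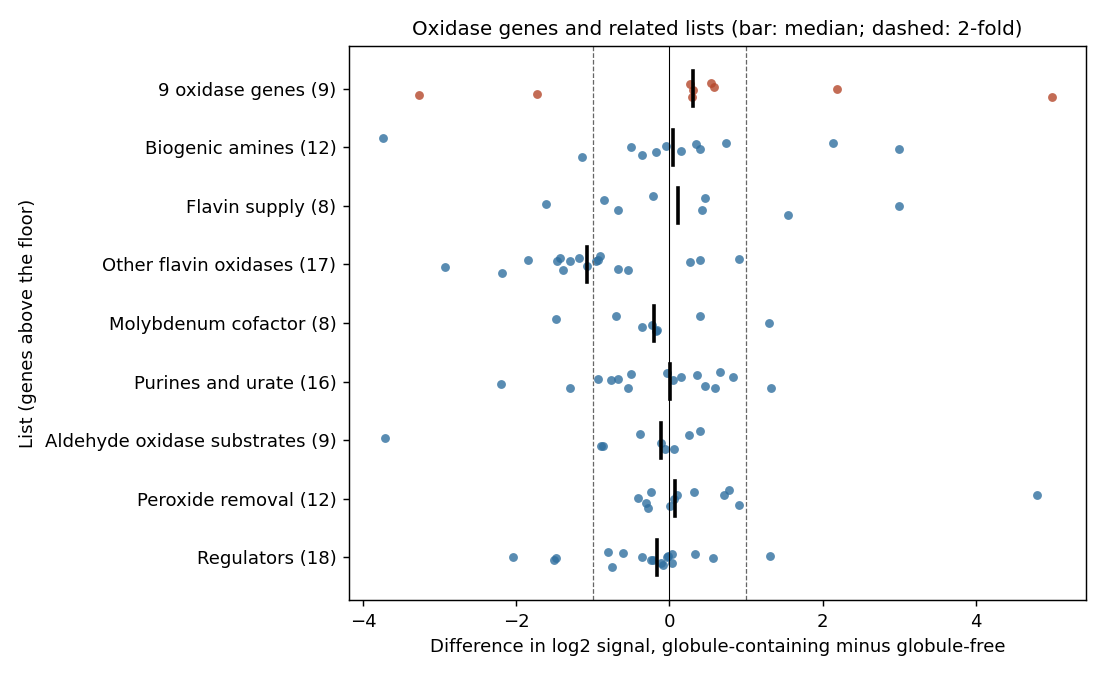
Difference in log2 signal (x axis) of each gene above the floor in the oxidase set and 8 related lists (rows, number of genes in brackets), with the median as a bar and 2-fold as dashed lines. The medians of the lists lie between -0.20 and 0.11 except for other flavin oxidases at -1.08.

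The arrays also differed in markers of cell types. Over all genes above the floor, 6.47% were higher and 5.26% lower by 2-fold or more, for use beside the marker counts. Hepatocyte markers had mean log2 signals of 16.22 with and 17.14 without globules, and none of 12 was at background. Of these 12, 4 were lower and none higher by 2-fold or more, with a median of -0.77. The urea cycle enzyme Cps1 was 5.17-fold, Pck1 of gluconeogenesis 6.57-fold and Tdo2 of tryptophan breakdown 3.54-fold lower. Cps1 and Pck1 also belong to the periportal list. In all, 10 of the 12 had a negative difference, but Asgr1 and Cyp2e1 differed by only -0.09 and 0.12. Alb, Ttr and Fga lay within 0.2 of the highest value of 1 or both arrays, which limits their differences. Stellate cell and fibroblast markers lay higher with globules present for 13 of 13 genes above the floor, with a median of 2.43 and a mean log2 signal of 8.87 against 6.63 over all 14 measured. Lum, Lrat and Dcn led them, with differences of 3.92, 3.46 and 3.42. Macrophage markers split, with 6 of 16 higher and 5 lower by 2-fold or more, and a mean of 9.32 against 8.32. Gpnmb was 277-fold, Lyz2 40.5-fold and Ctss 33.8-fold higher, while Clec4f of Kupffer cells was 8.28-fold lower. Of 6 leukocyte markers above the floor, 3 were higher by 2-fold or more, with a median of 1.19 and a mean of 5.75 against 4.85 over all 13 measured. S100a8 and S100a9 of myeloid cells were 60.7-fold and 23.2-fold and Ptprc, the common leukocyte antigen, 3.95-fold higher. The others above the floor, Nkg7, Ly6g and Camp, differed by 0.39, 0.27 and -0.04. Cd3e, Cd4, Cd8a, Cd79a, Ms4a1, Klrb1c and Mpo lay at background on both arrays. Endothelial markers had a median of 0.15, with Eng, at 2.61-fold higher, the 1 of 12 at least 2-fold apart. Cholangiocyte markers had 4 of 7 above the floor and a mean of 5.45 against 4.76 over all 7. Tspan8, higher by at least 6.52-fold, was the 1 of the 4 at least 2-fold apart. Epcam, Krt19 and Sox9 differed by 0.96, 0.34 and 0.24, and Krt7 and Cftr lay at background on both arrays. Red cell, platelet, muscle and mesothelial markers had a mean of 5.34 against 5.47. The part of these markers in the Maoa, Maob, Aox1 and Aox3 differences was not tested.

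Markers of lobular position differed between the lists. Pericentral markers had a median of 0.17, with 2 of 12 higher and 2 lower by 2-fold or more, among them Gulo, 4.56-fold higher, and Cyp2c37, 16.7-fold lower. The other lower gene, Aldh1b1 at 3.18-fold, also belongs to the periportal list and is counted as lower in both. The periportal median was -3.24, with Hal 48.9-fold, Etnppl 30.1-fold and Pigr 15.0-fold lower. Signals of the Y-linked genes Eif2s3y (10.03 against 9.94), Kdm5d (7.09 against 6.98) and Uty (8.39 against 7.87) were above background on both arrays, and Xist was at background on both. Genes with male-biased expression in liver had 5 of 10 lower and 1 higher by 2-fold or more, led by Serpina4-ps1, 116-fold lower, Elovl3, lower by at least 14.7-fold, and Hsd3b5, 14.2-fold lower. Genes with female-biased expression had 5 above the floor, 1 higher and 2 lower by 2-fold or more, and Cyp2a4 was 14.9-fold higher. Whether position in the lobule or this mixed pattern is tied to Aox1 and Aox3 was not tested.

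**Figure D5:**
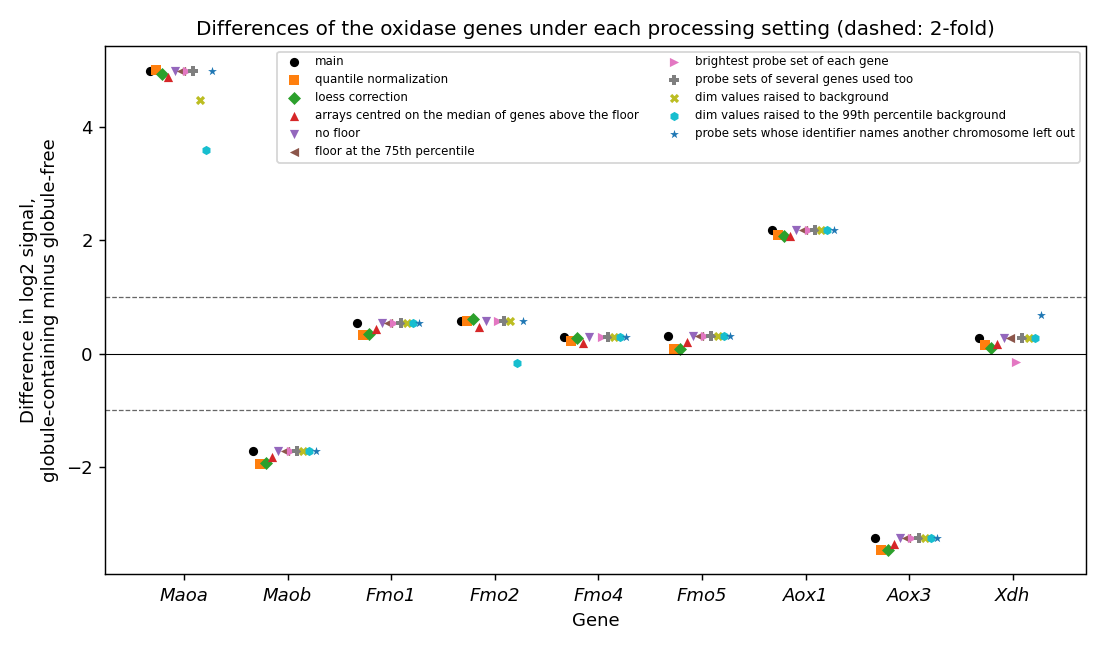
Difference in log2 signal (y axis) of each oxidase gene (x axis) as deposited (black, labelled main) and under the alternatives that keep the threshold, with 2-fold as dashed lines. Maoa, at 3.59 to 5.01, and Aox1, at 2.08 to 2.19, stay above 2-fold, Maob and Aox3 stay below it, and Xdh moves from -0.15 to 0.68 with the choice of probe set.

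The calls of Maoa, Aox1, Maob and Aox3 were the same in all 10 alternatives that kept the 2-fold threshold. None of these alternatives put an Fmo gene or Xdh 2-fold apart. Only the scalings changed the differences of Maob, Aox1 and Aox3, and for Maoa the raised backgrounds did so too. The other alternatives left these differences as deposited, so the same calls there say nothing on stability.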

How the data were processed

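RNA of laser-captured liver areas with and without globules was measured on 1 array each, with 2 mice pooled per array. The authors deposited a log2 signal for each of 72688 probe sets, made with the Transcriptome Analysis Console per the submitters' processing notes. Background correction, normalization and build: not given in the sources used here. Their log2 scale was read from the values, which ran from 1.85 to 19.93. Genes were named from the platform annotation, updated through Entrez IDs in RefSeq (GRCm38.p6), and probe sets of several genes were left out. Probe sets of a gene were averaged. The floor was the 50th percentile of the mean log2 signal over 30604 probe sets of 1 gene. A fold is called "at least" where 1 signal was at or below background, which was then used in its place, or within 0.2 of the highest value of its array. Counts use the values as deposited. The members and lists were chosen with earlier results of these data known. Named genes are all members, the 3 with the largest difference in each list, those at least 4-fold apart in it (of marker and sex lists, the leading ones only), a few fixed genes and the rank neighbours of Maoa. Genes given beyond that rule were chosen after their values were seen: Ddc, Slc6a4, Th, Tph1, Dbh, Klf11, Foxo1 and Nfe2l2 of the lists, Fmo6, Fmo9, Aox2, Aox4 and the blood cell markers at background, and the flanking genes Fundc1 and Prkab2. So were Alb, Ttr, Fga, Asgr1, Cyp2e1, Nkg7, Ly6g, Camp, Sox9, Krt7 and Cftr of the marker lists. The same holds for Gpx1, Sod1, Sp1, Nr3c1 and Cdca7l of the related lists. The counting of 2-fold genes was tested on simulated arrays with known shifts. Array number limits the precision. Python 3.11.15, numpy 2.4.6, pandas 2.3.3, statsmodels 0.14.6 and matplotlib 3.10.9 were used.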

Additional observations from a re-analysis of the deposited data

How the results depend on the processing

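Of 12 alternatives, 11 were planned and 1, leaving out probe sets whose identifier names another chromosome, was chosen after seeing the data. Medians of lists are given where they shifted by more than 0.17. A 4-fold threshold left 1 gene lower (Aox3), and a floor at the 75th percentile left 3 genes within 2-fold, since Fmo2 and Fmo4 fell below it. The median of the oxidase genes became 0.54 without the second Xdh probe set. With background at the 99th percentile the medians of the amine and purine lists were -0.16 and -0.27, and with the higher floor those of the flavin supply and regulator lists were -0.12 and -0.48. The median of the aldehyde oxidase substrates was -0.31 after quantile normalization and -0.29 after loess correction, and the cause was not tested. The median of all genes became -0.18 with background at the 99th percentile. Centring the arrays shifted it by -0.10 and gave 789 higher and 990 lower genes in place of 972 and 790. No paired analysis was possible because each group is 1 array. Signal near background limits Maoa and Fmo2.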
